A study of Mus musculus with 5 samples.

Results

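The transcripts described here are those of 32 mouse genes that make and feed the tricarboxylic acid (TCA) cycle: its enzymes, the pyruvate dehydrogenase complex with its kinases and phosphatases, the mitochondrial pyruvate carrier, 2 mitochondrial malic enzymes and both aspartate aminotransferases. They were taken by gene symbol from a deposited table of 23997 rows, and all 32 had a row. RNA came from whole kidneys of mice aged 8 weeks. The 3 control libraries (control 0, 1 and 2) carry the genotype label of uninduced controls. The 2 others (knockout 0 and 1) carry the label Pkd1 knockout, and are called SKO by their titles but PkdTKO by the series' design text. Library values below run in the order control 0, 1, 2 and knockout 0, 1. The labels name no strain, sex, inducing agent or promoter that drives the deletion, and they do not say whether a library came from 1 animal, so p-values speak of variation among these 5 libraries alone, which may be technical. Values are FPKM, in which the fragments of a gene are divided by transcript length and by the library's mapped fragments, so levels of different genes can be compared per length. Differences are log2 fold changes of FPKM + 1, knockout minus control.

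In the TCA cycle acetyl groups are joined to oxaloacetate and oxidised to carbon dioxide, and the electrons go to the respiratory chain. Pyruvate enters mitochondria through the carrier formed by Mpc1 and Mpc2, and the pyruvate dehydrogenase complex turns it into acetyl-CoA. Kinases of the Pdk family phosphorylate and inhibit that complex, and phosphatases of the Pdp family reverse this. Kidney tubules, the proximal tubule above all, are rich in mitochondria and pay for sodium reabsorption with oxidative metabolism. Pkd1 encodes polycystin-1, whose loss in tubule cells leads to cysts.

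Pkd1 itself was at 3.22, 3.51 and 3.49 in the controls against 2.72 and 3.60 in the knockouts (log2 -0.09, 95% interval -0.38 to 0.20). The groups overlapped, and because the deleted exons are not named and a value over the whole gene can miss them, Pkd1 does not check the labels: "knockout" here stands for a library labelled so. The FPKM of a library summed to between 462814 and 507053. The labels state no depth, and it is treated as unknown: low FPKM values of genes with a single transcript fell on steps, but in 3 of 5 libraries the step taken as 1 fragment depended on the range searched. Markers of podocytes, collecting duct and proximal tubule were present in all 5 libraries, as the kidney label says, although the proximal tubule genes Lrp2 and Slc34a1 were listed at exactly 0 in each. No member was listed at 0 in any library. Genes that mark sex differed between the groups. Xist, expressed from the inactive X chromosome of females, was at 0.0275, 0.0222 and 0.0257 in control 0, 1 and 2, at 30.8 in knockout 0 and at 80.3 in knockout 1. The Y-linked gene Ddx3y was between 17.8 and 18.6 in the controls, against 7.30 and 0.00194 in the knockouts. Knockout 0 thus held both transcripts. Sex and genotype therefore cannot be told apart below.

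Most of the genes that carry pyruvate into the cycle and turn it had less transcript in both knockout libraries than in any control. In 22 of 32 members both knockout libraries lay below every control, against 26.3% of the 12640 rows tested, and in 3 both lay above every control, against 21.9% of those rows. The differences were moderate, with log2 fold changes between -0.62 and 0.28 and a median of -0.32, where the median over all tested rows was -0.02. In limma's test, adjusted over all 12640 rows, 4 members fell (3.62% of all rows did) and 0 rose (2.73% of all rows did), while at an unadjusted p under 0.05 the counts were 18 lower (16.6% of all rows) and 1 higher (12.5% of all rows). The 4 were Mpc1, Pdha1, Aco1 and Idh2, which all averaged at least 100 FPKM. Of the 933 rows at that level, 126 fell and 34 rose in the same test. Summed over the 32 members, FPKM was 5962, 5941 and 5785 in the controls against 4419 and 4869 in the knockouts. In bulk RNA, fewer cells of a type and less RNA per cell cannot be told apart.

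**Figure D1:**
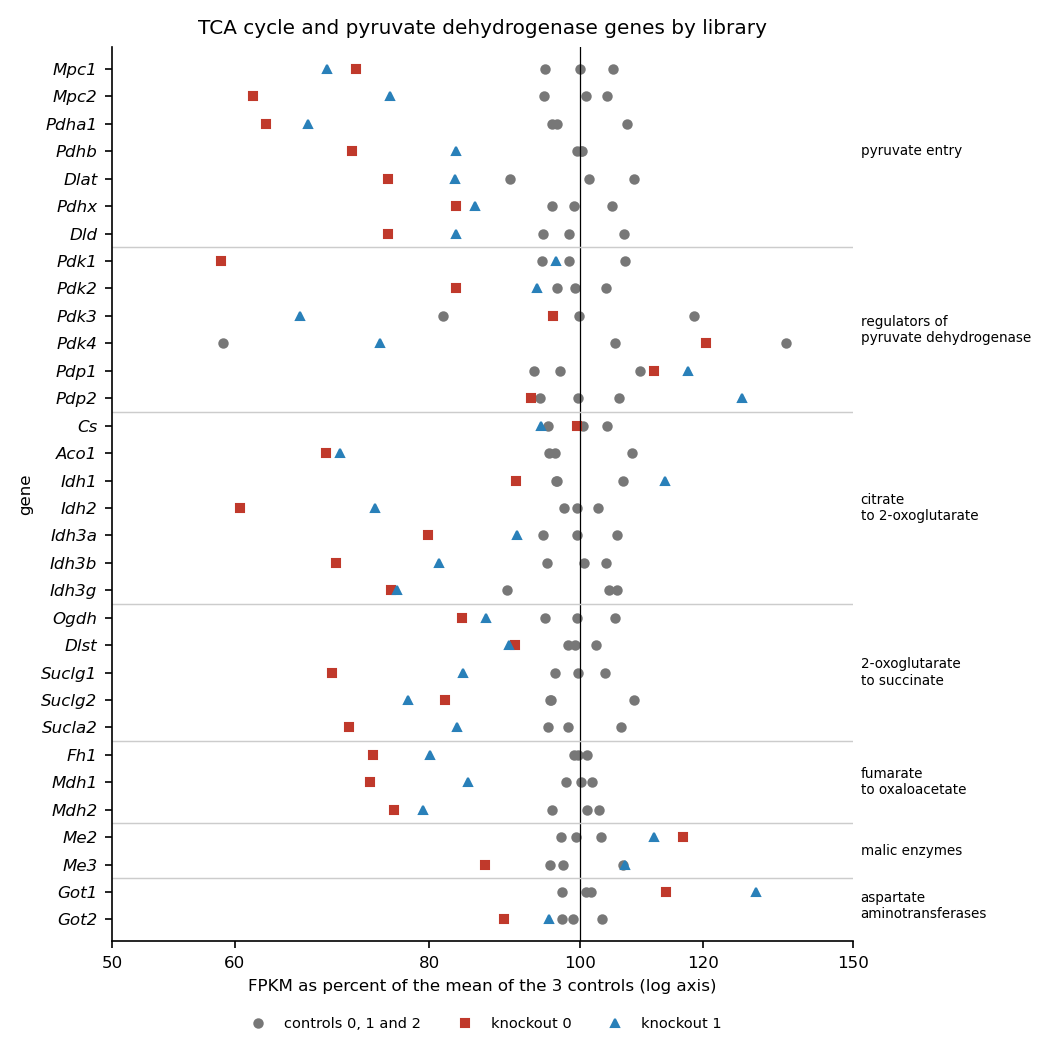
FPKM of each of the 32 genes in each of the 5 libraries, as percent of the mean of the 3 controls on a log axis, with genes grouped by role; circles are controls, squares knockout 0 and triangles knockout 1. In 22 genes both knockout symbols lie left of every control, in Me2, Got1 and Pdp1 both lie right of every control, and in the regulators the symbols of the groups mostly intermingle.

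Among the genes of pyruvate entry was the lowest fold change of all members, and both knockout libraries lay below every control in 7 of 7 members (median log2 fold change -0.37). Pdha1, which encodes the catalytic alpha subunit of pyruvate dehydrogenase, was at 271, 242 and 244 in the controls against 158 and 169 in the knockouts. It fell to 62.8% and 66.8% of the control mean (log2 -0.62, SE 0.0888, limma adjusted p = 0.0278). Pdha1 (ENSMUSG00000031299.10) lies on the X chromosome of mm10, 160122209 to 160138413, minus strand, and an exon of Map3k15 overlaps it on the other strand. Mpc1, a subunit of the mitochondrial pyruvate carrier, was at 496, 473 and 449 in the controls against 339 and 325 in the knockouts. It fell to 71.8% and 68.7% of the control mean (log2 -0.51, SE 0.0857, limma adjusted p = 0.0374). Mpc1 (ENSMUSG00000023861.17, mm10 chromosome 17, 8282904 to 8297661, plus strand) has 2 near-identical copies in the annotation and an overlapping gene on the opposite strand, so its value is uncertain.

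Mpc2, the partner subunit, was at 449, 478 and 493 in the controls against 292 and 357 in the knockouts, a difference as large as that of Mpc1 (log2 -0.55, 95% interval -0.84 to -0.26) that did not pass (limma adjusted p = 0.0552). Here the knockout libraries differed more from each other than in Mpc1, with 61.6% and 75.5% of the control mean. Pdhb, the beta subunit of the dehydrogenase, was at 141.5 ± 0.516 (SD, n = 3) in the controls against 101 and 118 in the knockouts. The controls of Pdhb were nearly equal, and the gene did not pass either (log2 -0.37, limma adjusted p = 0.0713). Dlat, the acetyltransferase core of the complex, was at 56.0 ± 5.17, 42.2 and 46.6, and Pdhx, which binds the E3 subunit to the core, at 20.3 ± 0.913, 16.9 and 17.4. Dld, the dehydrogenase subunit that the complex shares with the 2-oxoglutarate complex, was at 173 ± 10.7, 130.3 and 144. All 3 lay below every control in both knockout libraries without passing (log2 -0.33, -0.23 and -0.33).

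**Figure D2:**
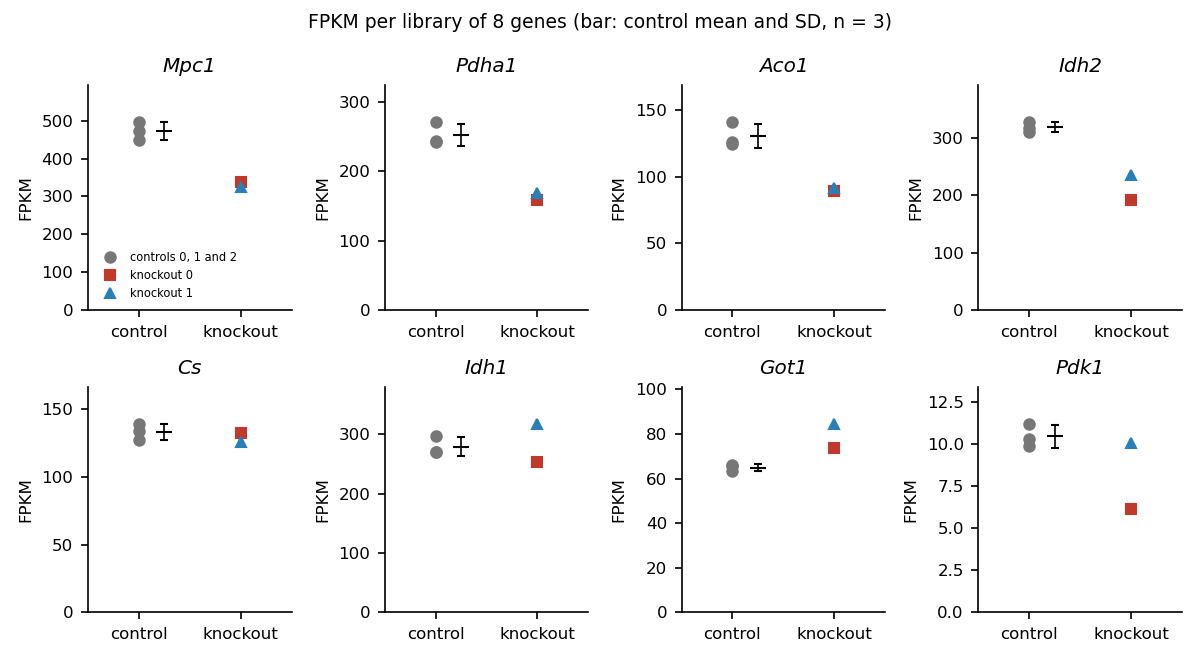
FPKM of 8 genes in each library, on axes that start at 0, with the control mean and SD (n = 3) as a bar. Mpc1, Pdha1, Aco1 and Idh2 are lower in both knockout libraries, Cs and Idh1 overlap between the groups, Got1 is higher in both, and Pdk1 is low in knockout 0 only (6.15, against 10.1 in knockout 1).

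Of the 6 regulators of pyruvate dehydrogenase 0 passed in limma's test and 0 had an unadjusted p under 0.05, and both knockout libraries lay below every control in 1. Whether the regulators differ from the other members was not tested. Pdk2 was the most abundant kinase, between 67.3% and 76.0% of the summed kinase FPKM of each library. It was at 126, 135 and 129 in the controls against 108 and 122 in the knockouts (log2 -0.18, 95% interval -0.39 to 0.04). Pdk2 was thus the regulator with both knockout libraries below the controls, by a narrow margin in knockout 1. Pdk1, a kinase induced by low oxygen, was at 9.91, 11.2 and 10.3 in the controls against 6.15 and 10.1 in the knockouts. Only knockout 0 stood apart, at 58.8% of the control mean against 96.5% in knockout 1 (log2 -0.36, SE 0.191, limma adjusted p = 0.269). Set against the controls, knockout 0 gave a log2 difference of -0.68 and knockout 1 a difference of -0.04, each as a lone library. Whether knockout 0 and 1 differ was not tested.

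Pdk3, an X-linked kinase, was at 37.5, 25.9 and 31.6 in the controls against 30.5 and 20.9 in the knockouts. Pdk4, which fasting and fatty acids induce, was at 13.7, 5.94 and 10.6 in the controls against 12.2 and 7.50 in the knockouts. The controls of Pdk4 spread over more than the difference between the groups, and its log2 fold change of -0.001 had a 95% interval of -0.90 to 0.90. Of the phosphatases, Pdp1 was the lowest of all 6 regulators, at 2.42 ± 0.202 (SD, n = 3) in the controls against 2.70 and 2.84 in the knockouts, and Pdp2 was at 12.2 ± 0.720, 11.4 and 15.6. Pdp1 was above every control in both knockout libraries, Pdp2 in knockout 1 only, and neither passed (log2 0.14 and 0.12).

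Of the 7 genes that lead from citrate to 2-oxoglutarate, 2 fell, and 5 had both knockout libraries below every control (median log2 fold change -0.39). Cs, citrate synthase, which makes citrate and whose activity often serves as a measure of mitochondria, was at 139, 134 and 127 in the controls against 133 and 126 in the knockouts. Its groups overlapped, with a log2 fold change of -0.04 and a 95% interval of -0.24 to 0.15. Aco1, the cytosolic aconitase that turns into an iron-regulated RNA-binding protein when it loses its cluster, was at 141, 125 and 126 in the controls against 89.5 and 91.3 in the knockouts. Both knockout libraries held about the same share, 68.7% and 70.1% of the control mean, and the gene fell (log2 -0.52, SE 0.0857, limma adjusted p = 0.0367). It lies on mm10 chromosome 4, 40143081 to 40198338, plus strand (ENSMUSG00000028405.9).

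Idh2, the mitochondrial NADP-dependent isocitrate dehydrogenase, was at 317, 327 and 310.5 in the controls against 192 and 235 in the knockouts. It fell to 60.4% and 73.9% of the control mean (log2 -0.58, SE 0.109, limma adjusted p = 0.0456). Idh1, its cytosolic and peroxisomal counterpart, was at 269.8, 298 and 269 in the controls against 254 and 317 in the knockouts. The knockout values of Idh1 lay on either side of the controls (log2 0.03, 95% interval -0.28 to 0.33). The NAD-dependent isocitrate dehydrogenase of the cycle is built from Idh3a, Idh3b and Idh3g. Idh3a, which holds the active site, was at 98.5 ± 5.35 (SD, n = 3) in the controls against 78.6 and 89.7 in the knockouts. Idh3b was at 255 ± 11.2, 177 and 207, and the X-linked Idh3g at 252 ± 22.2, 190.2 and 192. None of the 3 passed (limma adjusted p = 0.184, 0.0716 and 0.0799), and all had both knockout libraries below every control.

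To show the letters upstream of an isoenzyme pair of which 1 member fell, the 250 bases before the RefSeq start sites of Idh2 and Idh1 are given, 5′ to 3′ on the strand of the gene (GRCm38.p6, the build named mm10). Capitals mark the GC box (GGGCGG) and the CCAAT box (CCAAT), on either strand. The Idh2 window is chr7:80115351-80115600 and the Idh1 window chr1:65186480-65186729, both for genes on the minus strand.
Idh2: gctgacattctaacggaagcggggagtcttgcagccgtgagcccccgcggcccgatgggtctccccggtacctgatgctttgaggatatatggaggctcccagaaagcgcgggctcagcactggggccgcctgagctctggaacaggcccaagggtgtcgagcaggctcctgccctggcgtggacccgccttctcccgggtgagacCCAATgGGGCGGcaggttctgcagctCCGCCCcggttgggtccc
Idh1: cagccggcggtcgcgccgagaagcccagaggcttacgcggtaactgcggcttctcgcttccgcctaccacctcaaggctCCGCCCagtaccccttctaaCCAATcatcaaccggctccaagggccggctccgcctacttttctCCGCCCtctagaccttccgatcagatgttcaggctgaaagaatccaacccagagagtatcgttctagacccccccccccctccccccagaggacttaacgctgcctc
Both windows hold 2 GC boxes and 1 CCAAT box. Of the 29 members matched in the RefSeq promoter table, 18 (62.1%) held a GC box and 17 (58.6%) a CCAAT box, against 32.9% and 34.5% of all 27025 promoters of the same length. The core of nuclear respiratory factor 1 (GCATGCGC), the response element of oestrogen-related receptors (TCAAGGTCA) and the site of GA-binding protein (CCGGAAGT) occurred in 0 of the 29, against 2.32%, 0.366% and 2.93% of all promoters. No match overlapped one of a different motif. Among the other members, Aco1 held 3 GC boxes, Mpc1 1 GC box and 2 CCAAT boxes, Pdha1 neither, and Cs, whose level overlapped between the groups, both. Where a gene had more than 1 listed start, as Idh1 and Mpc1 had with 2 each, the first listed was used. The Mpc1 window, chr17:8283537-8283786, lies within the extent of the gene given above, and so does most of the Aco1 window. A match is a run of letters, not a bound site.

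From 2-oxoglutarate to succinate, 5 of 5 members had both knockout libraries below every control and 0 passed in limma's test, with 4 lower at an unadjusted p under 0.05, as were 16.6% of all rows (median log2 fold change -0.32). Suclg1, the alpha subunit of both succinyl-CoA ligases, was at 329, 318 and 342 in the controls against 228 and 277 in the knockouts (log2 -0.39, SE 0.109, limma adjusted p = 0.0943). Suclg2, the beta subunit of the GTP-forming ligase, was at 194 ± 14.1 (SD, n = 3) in the controls against 159 and 151 in the knockouts. Sucla2, the beta subunit of the ATP-forming ligase, was at 135 ± 7.59, 95.7 and 112. Suclg2 was lower in knockout 1 than in knockout 0, and Sucla2 was lower in knockout 0 than in knockout 1. Of the 2-oxoglutarate dehydrogenase complex, Ogdh and Dlst lay nearer to their controls than the ligase subunits did. The shared subunit Dld (log2 -0.33) lay about as far from its controls as Suclg2 (log2 -0.32). Ogdh, the first enzyme of the complex, was at 121 ± 6.31, 102 and 105, and Dlst, the succinyltransferase, at 182 ± 3.93, 165 and 164 (log2 -0.22 and -0.14).

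The last steps of the cycle, from fumarate to oxaloacetate, had 3 of 3 members below every control in both knockout libraries. Fh1, fumarate hydratase, was at 162, 159 and 159.7 in the controls against 118 and 128 in the knockouts. Its controls lay within 3 FPKM of each other, and its log2 fold change of -0.38 (95% interval -0.57 to -0.19) missed the threshold narrowly (limma adjusted p = 0.0503). Mdh1, the cytosolic malate dehydrogenase and the most abundant member, was at 838, 851 and 819 in the controls against 613 and 708 in the knockouts. Mdh2, the mitochondrial enzyme of the cycle, was at 427 ± 15.1 (SD, n = 3), 324 and 338. The cytosolic and the mitochondrial gene thus differed by about the same amount (log2 -0.34 and -0.37, limma adjusted p = 0.0976 and 0.0605).

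Malic enzymes and aspartate aminotransferases, which connect the cycle with pyruvate and amino acids, went both ways, and 0 of 4 passed in limma's test, with Got1 the 1 higher at an unadjusted p under 0.05 (12.5% of all rows were). Got1, the cytosolic aspartate aminotransferase, was at 65.5, 63.3 and 66.0 in the controls against 73.8 and 84.3 in the knockouts. Both knockout values lay above the controls, at 114% and 130% of their mean (log2 0.28, 95% interval 0.06 to 0.49, limma adjusted p = 0.108). Got2, the mitochondrial form, was at 178, 189 and 181 in the controls against 163 and 174 in the knockouts (log2 -0.11). Me2, the NAD-dependent mitochondrial malic enzyme, was at 3.89, 4.03 and 3.80 in the controls against 4.55 and 4.36 in the knockouts. Me3, the NADP-dependent one, was at 9.06, 8.14 and 8.29, and at 7.38 and 9.09. Both malic enzymes were low beside the cycle's other enzymes. Me2 was above the controls in both knockout libraries and Me3 was not.

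**Figure D3:**
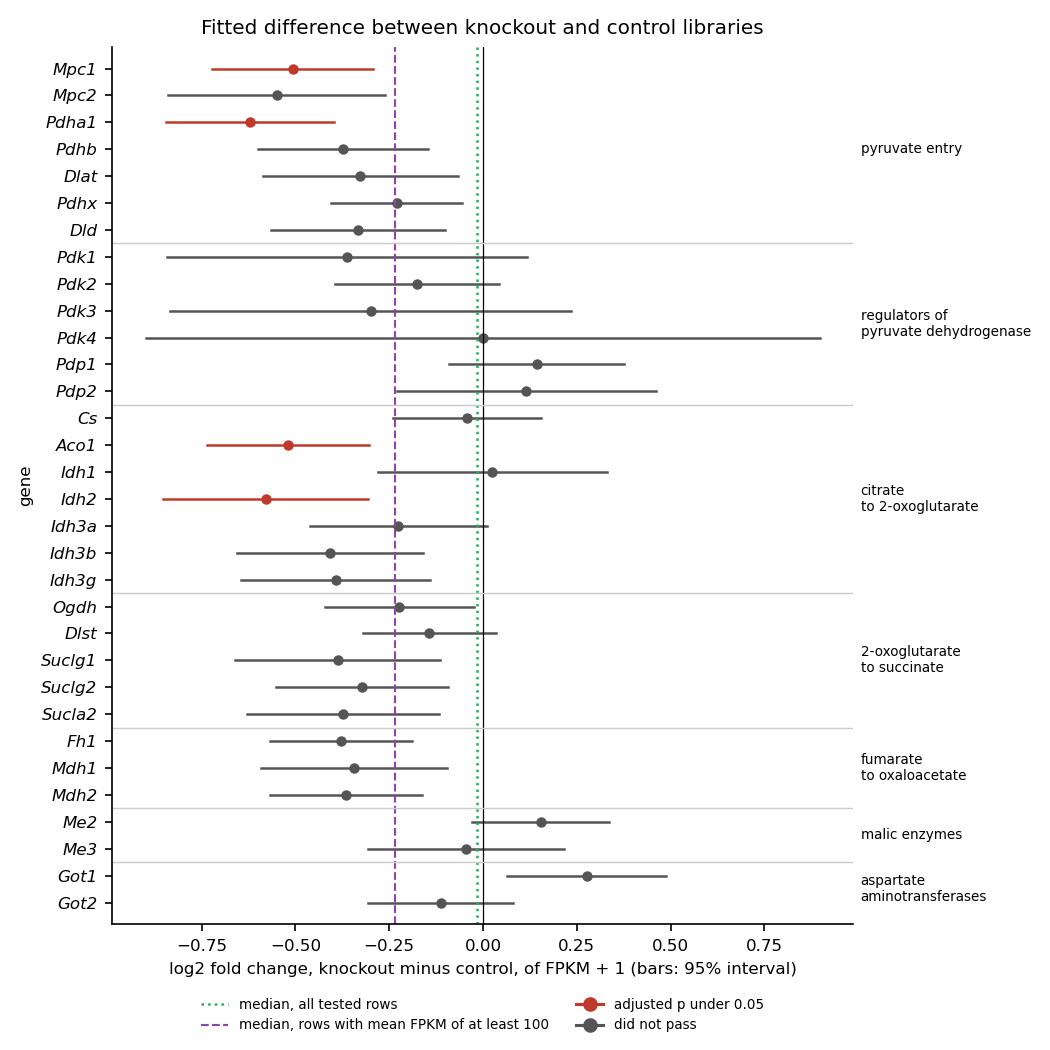
Fitted log2 fold change (knockout minus control, of FPKM + 1) of each of the 32 genes with its 95% interval; red marks the 4 genes with a limma adjusted p under 0.05. Dashed and dotted lines give the median of the rows averaging at least 100 FPKM (-0.23) and of all tested rows (-0.02); 27 of the 32 points lie below 0.

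Abundant transcripts in general had lower values in the knockout libraries, and most members are abundant. Of the 933 rows averaging at least 100 FPKM the median log2 fold change was -0.23, and in 54.8% both knockout libraries lay below every control. The 21 members above that level had a median of -0.37, and 19 of them lay below every control in both knockout libraries. The 2 knockout libraries also had unlike values, a difference that was not tested. Knockout 0 was the lower of the pair in 25 of 32 members (median log2 difference from the controls -0.36, against -0.25 in knockout 1), whereas among all rows averaging at least 100 FPKM it was the lower in 354 of 933.

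Ratios between partner genes within a library do not change when the library is multiplied by 1 factor, though quantile normalization can change them. From the FPKM as given, 12 such ratios, chosen after the values were seen, were computed. The ratio of Idh2 to Idh1 was 1.17, 1.10 and 1.15 in the controls against 0.757 and 0.742 in the knockouts. The mitochondrial enzyme was thus the more abundant of the pair in every control and the less abundant in both knockout libraries. The ratio of Got2 to Got1 was 2.72, 2.98 and 2.74 in the controls against 2.21 and 2.07 in the knockouts. In malate dehydrogenase the same comparison showed no such shift, with Mdh2 to Mdh1 at 0.490, 0.516 and 0.527 in the controls against 0.529 and 0.478 in the knockouts. Within the dehydrogenase complex, Pdha1 to Pdhb was 1.78 ± 0.112 (SD, n = 3) in the controls against 1.57 and 1.43 in the knockouts. Idh3a to Idh3b was the ratio that was higher in both knockout libraries, at 0.387 ± 0.00525, 0.443 and 0.434. The remaining 7 ratios, among them Suclg2 to Sucla2 and Mpc2 to Mpc1, overlapped between the groups.

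**Figure D4:**
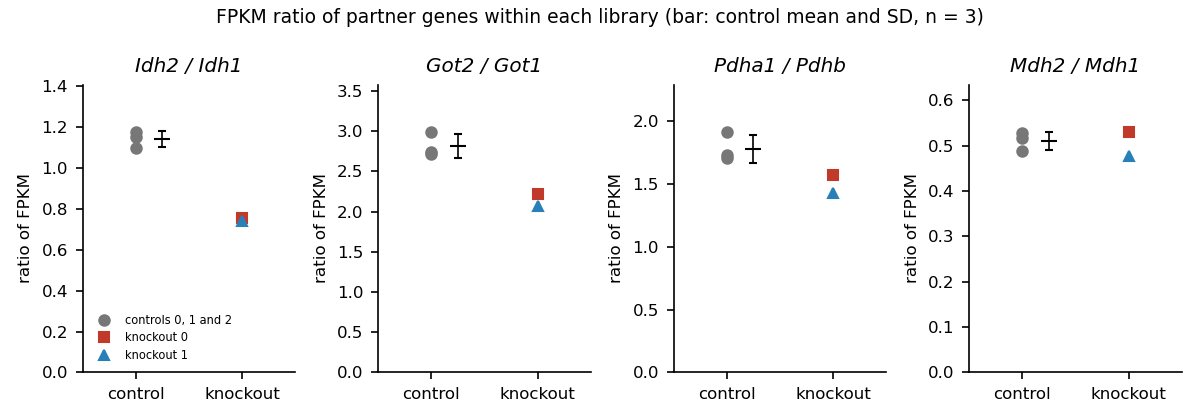
Ratio of the FPKM of partner genes within each library, on axes that start at 0, with the control mean and SD (n = 3) as a bar. Idh2 to Idh1, Got2 to Got1 and Pdha1 to Pdhb are lower in both knockout libraries than in any control, and Mdh2 to Mdh1 overlaps between the groups.

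Other genes of the pathway were read from a list of cycle subunits outside the members, lipoate synthesis, carriers, lactate dehydrogenases and enzymes that add or remove cycle intermediates. Of its 39 tested genes 6 fell (3.62% of all rows did), 1 rose (2.73% of all rows did) and 32 did not pass in limma's test. The median log2 fold change was -0.20, against -0.02 over all rows and -0.23 over rows averaging at least 100 FPKM. In 21 of the 39 both knockout libraries lay below every control, against 26.3% of all rows and 54.8% of rows averaging at least 100 FPKM. Pcx, pyruvate carboxylase, which makes oxaloacetate from pyruvate, was at 163, 166 and 165 in the controls against 87.1 and 96.1 in the knockouts. It fell by 0.84 on the log2 scale (SE 0.0773, limma adjusted p = 0.0122), more than any member. Me1, the cytosolic malic enzyme, fell from 235 ± 52.2 (SD, n = 3) to 116 and 79.3, and Acat1, mitochondrial acetoacetyl-CoA thiolase, from 282 ± 35.0 to 156 and 121.

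Slc25a10, the mitochondrial dicarboxylate carrier, fell from 104 ± 7.22 to 63.5 and 61.6 (log2 -0.73, limma adjusted p = 0.0207). Sdhaf1, an assembly factor of succinate dehydrogenase, fell from 48.5 ± 3.67 to 32.9 and 30.5, and Mecr, an enzyme of mitochondrial fatty acid synthesis, the route to lipoate, from 33.4 ± 0.888 to 26.3 and 23.9. Gpt2, mitochondrial alanine aminotransferase, which interconverts pyruvate and alanine, was the gene that rose, from 18.6, 28.8 and 21.7 in the controls to 59.9 and 49.9 in the knockouts (log2 1.23, SE 0.195, limma adjusted p = 0.0337). Subunits of succinate dehydrogenase, the step between succinate and fumarate, had log2 fold changes of -0.27 (Sdha), -0.49 (Sdhb), -0.45 (Sdhc) and -0.32 (Sdhd), and none passed.

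Other genes of mitochondria and of cell types had unlike values in the same libraries. Of 9 genes taken as measures of mitochondrial content, 7 lay below every control in both knockout libraries, and the summed FPKM of the 8 never listed at 0 was 2837 to 2912 in the controls against 2108 and 2240 in the knockouts. Atp5a1, left out of that sum, was listed at 0 in every control and at 728 and 916 in the knockouts. The 11 proximal tubule markers other than Lrp2 and Slc34a1 summed to 3975 to 4435 in the controls against 3016 and 3061 in the knockouts, with 4 of them below and 2 above every control in both. Most of the control sums came from Miox and Slc22a12, which were among the 4. Miox was at 1585 to 1946 in the controls against 1246 and 1283 in the knockouts, and Slc22a12 at 670 to 1055 against 406 and 250. Macrophage markers were above every control in 8 of 8, with sums of 276 to 314 in the controls against 1370 and 368 in the knockouts, and so were 6 of 6 lymphocyte markers, with sums of 2.05 to 2.39, 6.96 and 3.77. Fibroblast markers summed to 62.8 to 94.2, 178 and 98.4. Sums for the thick ascending limb and distal tubule without Umod were 638 to 811, 408 and 767. Umod was listed at 0 in every control and at 784 and 1144 in the knockouts. Why Atp5a1 and Umod were at 0 in the controls alone was not tested. Collecting duct sums were 510 to 610, 398 and 564, podocyte sums 101 to 129, 92.5 and 138, and endothelial sums 90.7 to 94.95, 94.7 and 105. Red blood cell genes summed to 19.4 to 45.5, 132 and 8.33, and brown fat genes, of which Fabp4 made up most, to 117 to 129.6, 108 and 99.5. Brown fat's defining gene Ucp1 was at 3.81, 1.38 and 3.12 in the controls against 0.0275 and 1.40 in the knockouts. Androgen-dependent kidney genes other than Kap, which was at 0 throughout, summed to 603 to 1403, 717 and 299. Odc1 made up most of both knockout sums, at 455 and 295, against 212 to 457 in the controls. Cyp7b1, Slco1a1, Cyp2j13 and Slc7a13 were at 4.05, 31.2, 52.2 and 175 in knockout 0. In knockout 1 they were at 1.80, 0.0422, 0.0927 and 1.83, where their lowest control values were 20.7, 14.2, 50.3 and 306. The part of these differences in the members' values was not tested.

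The 4 calls are fragile, since they need all 3 controls. Without control 0, 1 or 2 the members' count in limma's test was 0 each time, and the adjusted p of Mpc1, Pdha1, Aco1 and Idh2 was 0.131 to 0.173, 0.0810 to 0.126 and 0.170 to 0.203, although 14, 17 and 13 members were lower at an unadjusted p under 0.05, as were 11.5%, 13.8% and 10.1% of all rows. Without knockout 0 the members' median log2 fold change was -0.25 (0.004 over all rows), and without knockout 1 it was -0.36 (-0.04 over all rows). Each of these fits holds a lone knockout library. The members' count was 1 with no filter on low values and 2 after rescaling to a common sum. It was 0 after quantile normalization or with the replicate number as a block. The log2 fold changes of the 4 moved less, between -0.54 and -0.37 for Mpc1, -0.67 and -0.47 for Pdha1, -0.55 and -0.40 for Aco1, and -0.72 and -0.44 for Idh2 over every alternative run.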

How the data were processed

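RNA-seq of whole kidneys from 5 mouse libraries was analysed. Per the labels' protocols, RNA was extracted with TRIzol and libraries were made with an Illumina mRNA-seq kit. FPKM were computed by the authors and deposited in 1 table. Per the submitters' processing notes, bcl2fastq and mm10 were used. The aligner, counting program, annotation, strandedness and depth were not given in the sources used here.

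FPKM are not counts, so limma 3.58.1 (R 4.3.3; a linear model with trended empirical Bayes variances, two-sided) was run on log2(FPKM + 1) of the 12640 rows averaging 1 FPKM or more, with Benjamini-Hochberg adjustment over all of them and a threshold of 0.05. The fit was checked on simulated data in which all 5 libraries varied as the controls do. That check does not cover knockout libraries that vary more than the controls. An exact permutation test of 3 against 2 libraries cannot go below 0.1. Positions come from GENCODE M21. Near-identical copies (95% identity over 200 bases) were found with BLAST 2.17.0: Mpc1 and Got2 have 2 each, Pdhb and Suclg2 1 each. Without known strandedness, reads of Mpc1, Pdha1, Idh3b, Mdh1, Me3 and Got2 cannot be told from those of a gene on the other strand. Tables and plots used Python 3.11.15, numpy 2.4.6, pandas 2.3.3 and matplotlib 3.10.9.

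Members and lists were chosen with earlier results of these data known, and motifs and ratios after the values were seen. Every member is named. Those that passed, and the most abundant and most changed of each role, are given library by library, as are Cs, Mpc2, Pdk3 and Pdk4, chosen after their values were seen. Of the other pathway genes those that passed are named, and the succinate dehydrogenase subunits were added after their values were seen. 1 gene of that list is not reported here by name.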

Additional observations from a re-analysis of the deposited data

How the results depend on the processing

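The counts depend on the libraries and the scaling, and the directions of most members do not. No filter on low values gave 482 genes in all, 1 member lower and 3 other pathway genes. Rescaling to a common sum gave 2 members lower, and quantile normalization gave 0, with 7 lower at an unadjusted p under 0.05 (15.6% of all rows were). With a limma adjusted p under 0.1 the counts were 2044 of 12640 genes in either direction, 15 members lower, 0 members higher and 13 other pathway genes. With an unadjusted p under 0.05 they were 3680 genes, 18 members lower, 1 member higher and 18 other pathway genes. With each library left out in turn the count over all genes was 36 to 2599, of members lower 0 to 13 and of other pathway genes 0 to 9. With the rows holding an exact 0 left out as well, these were 0 (without control 0 or 2), 138 (without control 1), 1710 (without knockout 0) and 3029 (without knockout 1) genes, 0 to 14 members lower, 0 to 1 higher and 0 to 15 other pathway genes. Whether the replicate numbers pair the libraries is not known. Deviations of same-numbered libraries from their group means correlated at 0.0863 (number 0) and 0.00236 (number 1). With 2 knockouts the deviations of one mirror those of the other, so these values are not separate checks and cannot exclude pairing. Under a replicate block 28 genes passed in limma's test, with 1862 at an unadjusted p under 0.05, and 0 members and 0 other pathway genes did, with 10 members lower at an unadjusted p under 0.05 (8.88% of all rows were). The other alternatives, a pseudocount of 0.1, a mean FPKM of at least 5, median-of-ratios scaling, no variance trend, robust variances and the rows with an exact 0 left out, gave 4 to 6 members lower. Of the members' log2 fold changes over all alternatives, 556 kept their direction and their side of the threshold, 39 no longer passed, 23 newly passed and 20 changed sign, none of these in a member that fell. Pdk4 turned positive with a pseudocount of 0.1 (0.0031), rescaled (0.072), with the block (0.067) and without control 0 (0.24), control 2 (0.067) or knockout 1 (0.31). Cs turned positive rescaled (0.038) and after quantile normalization (0.13), Me3 rescaled (0.028) and without knockout 0 (0.088), and Dlst (0.0023) and Got2 (0.037) after quantile normalization. Pdp2 (-0.095) and Idh1 (-0.13) turned negative without knockout 1. With 1 library left out, log2 fold changes ran from -0.32 to 0.31 in Pdk4, -0.095 to 0.33 in Pdp2, -0.13 to 0.18 in Idh1 and -0.18 to 0.088 in Me3. The cause was not tested. The depth is unknown, and 3 against 2 libraries limit what can pass.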
